A study of Mus musculus with 412 samples.

Results

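Colonic sensory neurons with Cbln2 and colonic sensory neurons with Fam19a1 were set side by side. Both kinds were selected on the levels of these 2 genes alone, in TPM, a unit in which reads are divided by gene length and the values of a neuron sum to a fixed total, so that levels can be compared between genes and between neurons. A Cbln2 neuron had at least 10 TPM of Cbln2 and less than 10 TPM of Fam19a1, and a Fam19a1 neuron the reverse. Of 325 neurons in the table, 279 had at least 9500 genes above 0 and were used. Among these, 10 were Cbln2 neurons, 33 were Fam19a1 neurons, 1 had both genes and 235 had neither at 10 TPM.

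The neurons came from healthy C57BL/6J mice. Fast Blue, a dye carried back along axons, was injected into the wall of the colon, and 3 to 10 days later dorsal root ganglia were taken and dissociated, those of thoracolumbar (TL) levels and those of lumbosacral (LS) levels as separate primary cultures. Single labelled neurons were picked by hand, for the tracer and not for any gene, and sequenced by Smart-seq2, which reads full-length cDNA without molecular identifiers. The labels do not name the mouse or the culture of a neuron, and the age and sex of the mice are not given in the sources used here. TL and LS were therefore each treated as 1 sample, neurons were not counted as replicates and no test was made. The neurons used comprised 139 from TL and 140 from LS ganglia.

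Cbln2 encodes cerebellin 2, a secreted protein of the C1q family that links neurexins on axon terminals to delta glutamate receptors at synapses. Fam19a1, also called Tafa1, encodes a small secreted protein of the TAFA family, whose members resemble chemokines. In dorsal root ganglia, neurons rich in neurofilaments generally have myelinated axons and carry touch, position or fast pain, while peptidergic neurons respond to nerve growth factor and release calcitonin gene-related peptide (Calca) and substance P (Tac1). The study used Cbln2 as a marker of a neurofilament subtype called mNFa and Fam19a1 as a marker of another called mNFb. For these colonic neurons it held that neurofilament markers probably do not go with much myelin, as mouse visceral afferents conduct slowly.

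The values that chose the neurons are a description. Cbln2 (ENSMUSG00000024647, chromosome 18, 86711110 to 86718283 on the plus strand of GRCm38) was at 256, 314, 25.2, 319, 260, 228, 291, 317, 181 and 119 TPM in Cbln2 neurons 1 to 10, from 60 to 1279 reads. Neuron 3 had the lowest level and neuron 10 the next. Fam19a1 (ENSMUSG00000059187, chromosome 6, 96113154 to 96657198, plus strand) ranged in the 33 Fam19a1 neurons from 12.7 to 179 TPM with a median of 65.8 TPM, from 70 to 1461 reads. Each gene was low or listed at 0 where the other was high, in part because the rule required it. Fam19a1 was listed at 0 in 6 of 10 Cbln2 neurons, with a highest level of 8.08 TPM in neuron 5, from 21 reads. Cbln2 was listed at 0 in 32 of 33 Fam19a1 neurons, and the remaining neuron had 4.32 TPM. Among the 279 neurons used, the limit of 10 TPM lay in a gap for Cbln2, as none fell between 4.71 and 25.2 TPM. Of neurons left out for fewer than 9500 genes, TL neurons of plates 2 and 5 had 16.2 and 16.4 TPM, within this gap. For Fam19a1 the limit lay within a run of values, where 7 neurons used had 5 to 10 TPM and 4 had 10 to 20 TPM. The nearest values to the limit were 9.69 TPM, under it, and 12.7 TPM, over it. The neuron with both genes, from a TL ganglion, had 82.2 TPM of Cbln2 and 13.6 TPM of Fam19a1.

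**Figure D1:**
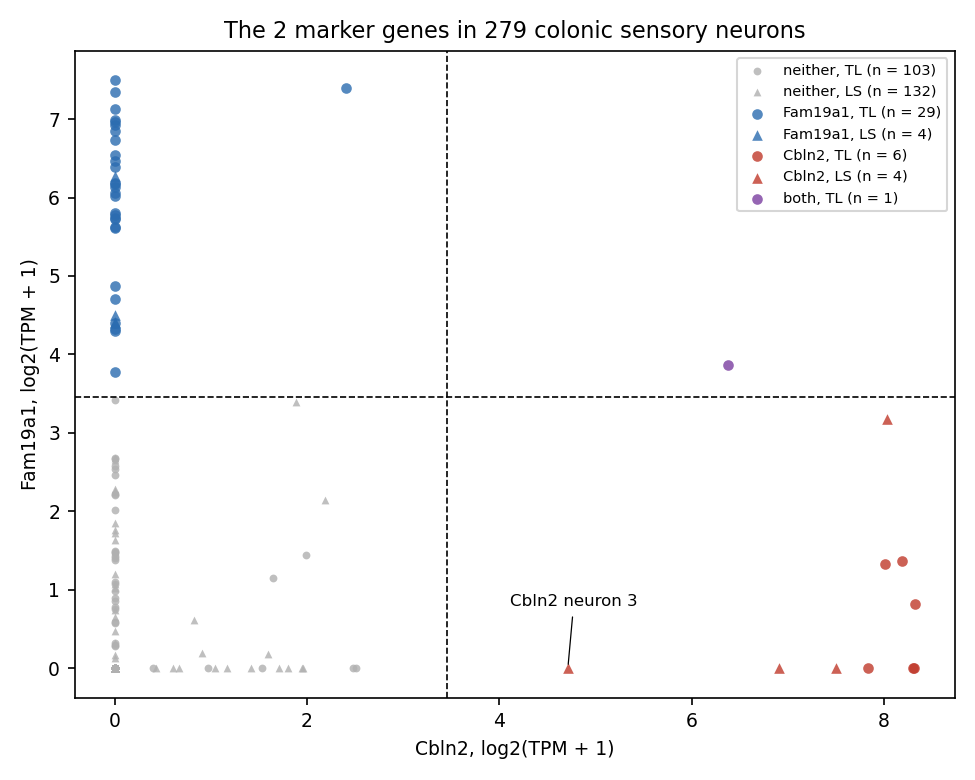
Cbln2 (x axis) against Fam19a1 (y axis) in the 279 neurons used, both as log2(TPM + 1). Each point is a neuron, colours give the kind, circles are TL and triangles LS neurons, and dashed lines stand at 10 TPM: the 10 Cbln2 and 33 Fam19a1 neurons lie along separate axes, 1 neuron is past both lines, and Cbln2 neuron 3 is the Cbln2 neuron nearest to its line.

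Cbln2 neuron 3, an LS neuron, stood apart from the other 9 in genes that the rule did not use. It had 26895 TPM of Calca, 2261 TPM of Gfra3, which encodes the receptor of artemin, 3550 TPM of Tac1 and 522 TPM of Trpv1, the capsaicin receptor. In the other 9 neurons Calca was at most 55.5 TPM and Trpv1 at most 1.76 TPM. S100b, a calcium-binding protein gene typical of large sensory neurons, was listed at 0 in neuron 3 and lay between 1400 and 1860 TPM in the others. Neuron 3 had 1 of 10 mNFa markers at 10 TPM or more, while the other 9 neurons had all 10. It had 6 of 10 markers of mPEPb, a peptidergic subtype. As these markers were derived from the neurons themselves, they are no independent evidence. The label of a neurofilament subtype thus went with 9 of the 10 Cbln2 neurons, and differences are given with and without neuron 3. Gfra3, Tac1, Trpv1 and S100b were chosen here after their values were seen.

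Depth and other signs of library quality overlapped between the kinds. Reads on genes ranged from 1423579 to 4406057 in Cbln2 neurons and from 1186484 to 12058968 in Fam19a1 neurons, with 9564 to 14927 and 10107 to 17102 genes above 0. The share of reads on mitochondrial genes had a median of 4.51% (range 1.83% to 6.43%) in Cbln2 neurons and 2.47% (1.25% to 6.76%) in Fam19a1 neurons. The markers of other cells that a picked neuron can carry differed more. The summed TPM of 12 satellite glia and Schwann cell genes ranged from 55.1 to 352 (median 107) in Cbln2 neurons and from 87.7 to 37391 (median 2609) in Fam19a1 neurons, with defining markers at 0 in some neurons of each kind. The summed level of macrophage markers reached 32.4 TPM in Cbln2 and 44.7 TPM in Fam19a1 neurons, and that of fibroblast and endothelial markers 12.1 and 877 TPM. These values stand beside each result that they move with.

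Fam19a1 neurons were mostly of TL origin. Of the 33, 29 were TL and 4 were LS neurons, an LS share of 12.1% (exact Clopper-Pearson 95% interval 3.40% to 28.2%), against 50.2% among all neurons used. The Cbln2 neurons held 6 TL and 4 LS neurons, an LS share of 40% (12.2% to 73.8%), so the intervals of the 2 kinds overlapped. Seen from the ganglia, Fam19a1 neurons made up 20.9% (14.4% to 28.6%) of TL and 2.86% (0.784% to 7.15%) of LS neurons, and Cbln2 neurons 4.32% (1.60% to 9.16%) of TL and 2.86% of LS neurons. The intervals cover counting error only, since neurons of a segment may share mice and cultures, which the labels do not name. In the 6 library plates the LS neurons among Fam19a1 neurons were 0 of 2, 2 of 7, 0 of 6, 1 of 7, 0 of 5 and 1 of 6. Plates 3 to 6 held 1, 2, 3 and 4 Cbln2 neurons. Plates 1 and 2 held 9 Fam19a1 neurons and no Cbln2 neuron among the 45 used, which allows a share of up to 6.67%. A TL neuron of plate 2 with 16.2 TPM of Cbln2 and Fam19a1 at 0 was left out for having fewer than 9500 genes.

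Across the transcriptome the 2 kinds were compared by the difference of their mean log2(TPM + 1), Cbln2 minus Fam19a1 neurons, a scale that understates the differences of genes with low levels. Of 17545 genes that reached 1 TPM in at least 10% of the 43 neurons, 286 (1.63%) were higher by 2 or more in Cbln2 neurons and 463 (2.64%) were lower by 2 or more, with a median difference over all these genes of -0.06. Without neuron 3 the counts were 347 (1.99%) and 514 (2.95%) of 17399 genes. With the deposited values as they are, which sum to a different total in each neuron, the median over the genes moved to 0.27 and the counts to 424 higher and 363 lower, so that genes higher in Cbln2 neurons were 53.9% in place of 38.2% of those past 2. All 15 leading genes of each direction, described next, were past 2 on that scale also. The direction was the same in TL neurons alone and within each of plates 3 to 6 for 275 of the 286 and 452 of the 463 genes.

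A gene can have a large mean difference and still overlap between the kinds. The values did not overlap for 6 genes (0.0342%) that were higher in Cbln2 neurons, which were Cbln2 itself, Serinc2, Pdia5, Clstn2, Zfp618 and Pea15a. Clstn2, which encodes the synaptic adhesion protein calsyntenin 2, ranged from 4.28 to 48.6 TPM in Cbln2 neurons and reached at most 3.43 TPM in Fam19a1 neurons. A further 19 genes (0.108%) were lower without overlap, Fam19a1, Trappc3l, Gng8, Dkk3, P2rx3, Sema5a and Bcl11b among them. Without neuron 3 the counts were 95 (0.546%) and 62 (0.356%). Pdia5, Clstn2, Zfp618 and Pea15a were named after their values were seen.

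Of the 15 genes with the largest differences in favour of Cbln2 neurons, 14 are reported here, namely Rarres1, Tspan8, Rgs5, Necab2, Baiap2l1, Serinc2, Moxd1, Tbx3os2, Slc6a19, Ppm1j, Tbx3, Rcan2, Acpp and Tmem72. Rarres1 (ENSMUSG00000049404, chromosome 3, 67478972 to 67515523, minus strand) is a gene induced by retinoids. It was at 842, 698, 4.59, 726, 532, 722, 894, 605, 591 and 320 TPM in Cbln2 neurons 1 to 10 and at 0 to 17.3 TPM in Fam19a1 neurons, with a median of 0. The level was high in every Cbln2 neuron but neuron 3, and the mean log2(TPM + 1) was 8.63 ± 2.20 (SD over 10 neurons, which are not replicates) against 0.94 ± 1.33 (33 neurons), a difference of 7.69, or 8.37 without neuron 3. Necab2 (chromosome 8, 119446719 to 119472640), which encodes a neuronal EF-hand calcium-binding protein, was listed at 0 in neuron 3, lay between 157 and 231 TPM in the other 9 and was at most 1.60 TPM in Fam19a1 neurons. Tspan8, a tetraspanin gene, had medians of 497 and 0 TPM, and reached 218 TPM in 1 of the 4 Fam19a1 neurons with 10 TPM or more. Rgs5, a regulator of G protein signalling, had medians of 349 and 0 TPM.

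Serinc2, a member of a family of membrane proteins linked to serine incorporation into lipids, was the only one of the 15 leading genes that separated all 10 Cbln2 neurons from all 33 Fam19a1 neurons. It was at 102, 138, 97.6, 184, 156, 166, 119, 113, 173 and 46.9 TPM in Cbln2 neurons 1 to 10 and at most 36.6 TPM in Fam19a1 neurons. Neuron 10, not neuron 3, was the lowest. Of the 235 neurons with neither marker at 10 TPM, 47.2% had Serinc2 at 10 TPM or more, 44.7% had Rarres1 and 58.7% had Rcan2. Slc6a19, Tbx3, Acpp, Tspan8 and Necab2 were at this level in 44.7%, 38.7%, 34.5%, 33.2% and 18.3% of them. Rgs5, Baiap2l1 and Moxd1 were rarer in them, at 5.53%, 5.11% and 6.81%, as were Ppm1j, Tmem72 and Tbx3os2, at 14.0%, 12.3% and 5.53%. Neurons with neither marker had 0 to 10 of the 15 higher leading genes at 10 TPM or more, with a median of 3. Rcan2, a calcineurin regulator, and Ppm1j, a phosphatase gene, were less exclusive, since 15 and 17 of 33 Fam19a1 neurons had them at 10 TPM or more and the highest of these reached 408 and 420 TPM. The medians of Rcan2 were 549 and 6.28 TPM and those of Ppm1j 887 and 13.5 TPM. Moxd1, related to dopamine beta-hydroxylase, was listed at 0 in 32 of 33 Fam19a1 neurons and had a median of 170 TPM in Cbln2 neurons. Slc6a19, an amino acid transporter gene, Acpp, the acid phosphatase used as a label of sensory terminals, and Tmem72 had medians of 152, 86.7 and 141 TPM in Cbln2 neurons, and medians of 0, 0.0862 and 0 TPM in Fam19a1 neurons.

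Of the 15 genes with the largest differences in favour of Fam19a1 neurons, 14 are reported here, namely Calca, Trappc3l, Cd9, Asic3, Gm7271, 6330403K07Rik, Ptgir, Apoe, Nmb, Kit, Tmem176a, Gng8, Dkk3 and D930028M14Rik. Calca (ENSMUSG00000030669, chromosome 7, 114631478 to 114636357, minus strand) was at 1.43, 0, 26895, 0, 15.3, 0, 1.13, 4.81, 55.5 and 0 TPM in Cbln2 neurons 1 to 10 and from 1764 to 41880 TPM, median 11654 TPM, in Fam19a1 neurons. All Cbln2 neurons except neuron 3 were below all Fam19a1 neurons, and the difference of -10.32 became -11.63 without neuron 3. Calca under 10 TPM was met in 8 of the 279 neurons, of which 7 were Cbln2 neurons and 1 was the neuron with both genes. None of the 235 neurons with neither gene was among them, which allows a share of up to 1.28%, and their median was 20657 TPM.

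Trappc3l (chromosome 10, 34037597 to 34109815), related to a subunit of a vesicle tethering complex, was at most 1.29 TPM in all 10 Cbln2 neurons, neuron 3 included, and ranged from 92.9 to 993 TPM in Fam19a1 neurons. Cd9, a tetraspanin gene, had medians of 1.55 and 1792 TPM, with 1604 TPM in neuron 3. Gng8, a G protein gamma subunit, and Dkk3, a secreted protein of the Dickkopf family, were at most 7.26 and 6.67 TPM in Cbln2 neurons and at least 11.6 and 13.4 TPM in Fam19a1 neurons. Ptgir, the prostacyclin receptor, and Kit, the receptor of stem cell factor, were listed at 0 in 9 of 10 Cbln2 neurons and had medians of 233 and 221 TPM in Fam19a1 neurons. Neuron 3 was the exception for both genes, at 39.4 and 42.8 TPM. Among the 235 neurons with neither marker, Cd9 was at 10 TPM or more in 100%, Nmb in 97.9%, Ptgir in 83.4% and Kit in 80%. Asic3, Gm7271, D930028M14Rik and Trappc3l were rarer in them, at 15.7%, 18.3%, 36.6% and 45.5%. These 235 neurons had 5 to 14 of the 15 lower leading genes at 10 TPM or more, with a median of 11. Many of the lower genes were thus not particular to Fam19a1 neurons.

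Counting all 30 leading genes in each neuron described the spread within a kind. Of the 15 higher genes, 9 Cbln2 neurons had all 15 at 10 TPM or more and neuron 3 had 4, while Fam19a1 neurons had 0 to 6. Of the 15 lower genes, the same 9 Cbln2 neurons had 0 to 3 and neuron 3 had 9, while Fam19a1 neurons had 11 to 15. The neuron with both marker genes had 10 of the higher and 7 of the lower genes, with Calca at 0.710 TPM and a glial sum of 3834 TPM. These counts follow from how the genes were picked and are a description only.

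**Figure D2:**
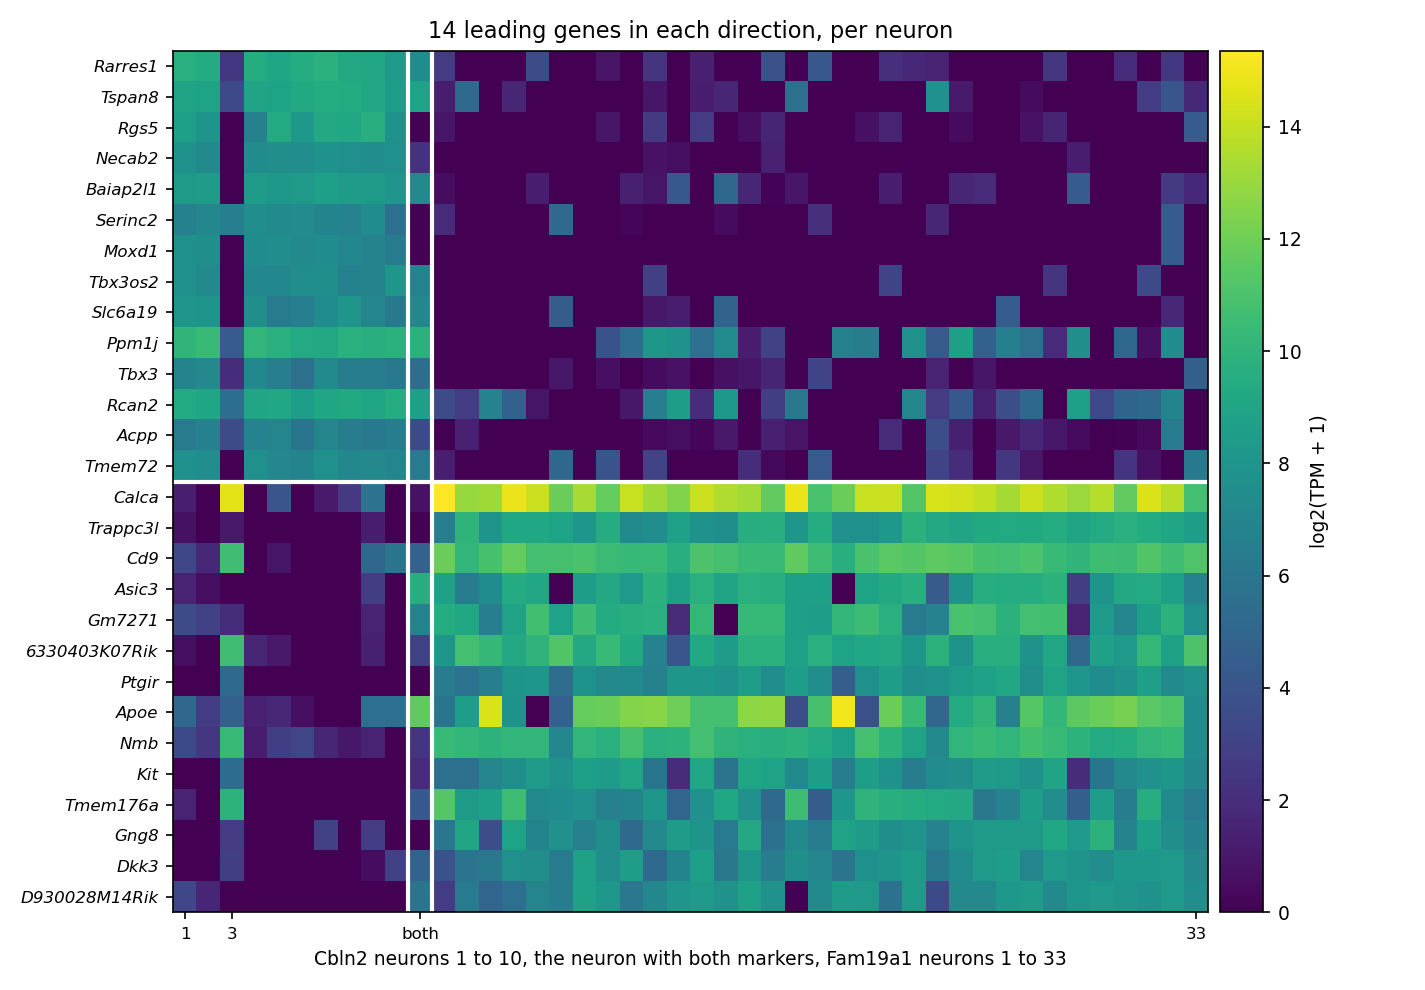
Levels, as log2(TPM + 1), of 14 of the 15 leading genes of each direction (rows) in Cbln2 neurons 1 to 10, the neuron with both genes and Fam19a1 neurons 1 to 33 (columns). The 9 other Cbln2 columns are bright for all 14 upper rows and dark for most lower rows, while the column of neuron 3 is dark in most upper rows and bright in many lower rows.

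The receptors for growth factors came from a list drawn up by function, as did the gene groups that follow. These lists were written with earlier results of these data known, so their counts are a description. The counts of each list are to be read against 1.63% higher and 2.64% lower over all tested genes. Members with a difference under 2 are named as defining members of their list or were chosen after their values were seen. Of 11 neurotrophin and GDNF family receptor genes tested, 2 were higher by 2 or more, 1 was lower and the median difference was 0.28, or -0.74 without neuron 3. Ntrk2, which encodes TrkB, the receptor of BDNF, was at 212, 233, 0.353, 276, 294, 174, 208, 170, 187 and 59.2 TPM in Cbln2 neurons 1 to 10 and had a median of 5.22 TPM and a highest level of 131 TPM in Fam19a1 neurons. It was thus high in all Cbln2 neurons but neuron 3, with a difference of 4.00, or 4.72 without that neuron. Sort1, the neurotrophin co-receptor sortilin, had medians of 11.4 and 0.357 TPM, a difference of 3.05. Ntrk3, which encodes TrkC, had medians of 10.6 and 1.62 TPM and a difference of 0.86, below 2. Ret, the signalling receptor of the GDNF family, had medians of 9.37 and 3.98 TPM.

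Neurofilaments, by which the study named both subtypes, were close in level. Nefh, the heavy neurofilament chain, was at 210, 786, 73.8, 489, 536, 317, 385, 337, 421 and 226 TPM in Cbln2 neurons 1 to 10 and from 92.8 to 1539 TPM, median 434 TPM, in Fam19a1 neurons. The ranges overlapped and the difference was -0.41, or -0.18 without neuron 3. Nefm and Nefl differed by 0.06 and -0.26, and Prph (peripherin) and Sncg (gamma-synuclein) by 0.30 and 0.05. Of 19 neurofilament and myelinated-neuron genes tested, 1 was higher by 2 or more, the calcium sensor gene Vsnl1 with medians of 179 and 10.3 TPM, and without neuron 3 so was Kcna1, a potassium channel gene. The 2 lower genes were Cplx2 (complexin 2), with medians of 0 and 82.0 TPM, and Syt2 (synaptotagmin 2), with 3.03 and 74.3 TPM, which both act in vesicle release. The list had a median difference of 0.06, and the other 16 genes were within 2.

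**Figure D3:**
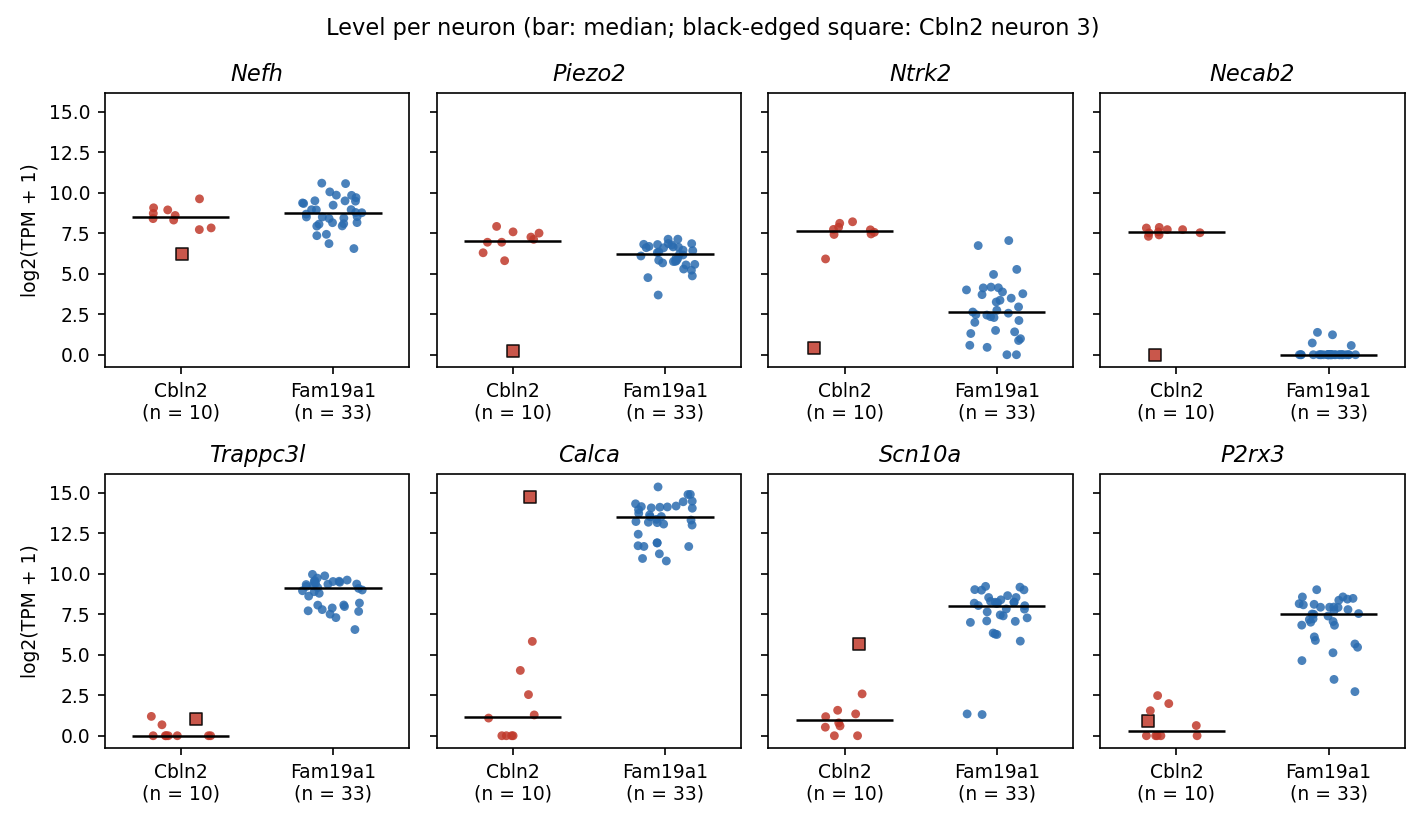
Level, as log2(TPM + 1), of 8 genes in each of the 10 Cbln2 and 33 Fam19a1 neurons, with a bar at the median and a black-edged square for Cbln2 neuron 3. Nefh and Piezo2 overlap between the kinds, Ntrk2 and Necab2 are high in 9 Cbln2 neurons, and Trappc3l, Calca, Scn10a and P2rx3 are low in these 9 and high in nearly all Fam19a1 neurons.

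Transcription factors of the sensory lineage differed in both directions. Of 28 tested, 4 were higher by 2 or more, 6 were lower and the median difference was 0.01. Tbx3, a T-box repressor, had medians of 91.5 and 0 TPM and a difference of 5.71, and its antisense neighbour Tbx3os2 had medians of 150 and 0 TPM. Both were lowest in neuron 3, at 2.95 and 0 TPM. Pou4f2 (Brn3b) and Shox2, homeobox genes of sensory development, had medians of 18.9 and 12.1 TPM in Cbln2 neurons and 0 TPM in Fam19a1 neurons. Prdm12, which is required for nociceptors to form, was listed at 0 in 7 of 10 Cbln2 neurons, was at 32.0 TPM in neuron 3 and had a median of 26.5 TPM in Fam19a1 neurons, a difference of -4.23. Pou4f3 (Brn3c) had medians of 23.1 and 217 TPM, and Bcl11b (Ctip2) was listed at 0 in all 10 Cbln2 neurons and present in all 33 Fam19a1 neurons, with a median of 5.60 TPM. Isl1 and Prrxl1, factors shared by most sensory neurons, differed by -0.68 and 0.10.

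Peptide and nociceptor genes were lower in Cbln2 neurons where they differed by 2 or more, with 1 exception. Of 13 neuropeptide genes tested, 5 were lower by 2 or more and 0 were higher, against 2.64% and 1.63% of all tested genes. The median difference of the list was -1.11. The 5 lower genes were Calca, Nmb (neuromedin B), Scg2 (secretogranin II), Adcyap1 (PACAP) and Gal (galanin). Scg2 had medians of 15.9 and 1175 TPM, and Adcyap1 7.58 and 396 TPM. Calcb, the beta form of calcitonin gene-related peptide, was at 122 to 2265 TPM in all 10 Cbln2 neurons, with a difference of -1.45 that was -0.43 against the 6 Fam19a1 neurons whose glial sum lay within the range of the Cbln2 neurons. Neuron 3 weighed on Gal, which was at 21130 TPM in it and at most 6.83 TPM in the other 9, and whose difference of -2.34 became -3.72 without it. In LS neurons the difference of Gal was 0.36, with 4 neurons on each side.

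Of 22 nociceptor channel and receptor genes tested, 5 were lower by 2 or more and 1 higher, against 2.64% and 1.63% of all genes. The median difference was -0.63. Asic3 (chromosome 5, 24413392 to 24417835), an acid-sensing channel of muscle and gut afferents, was listed at 0 in 7 of 10 Cbln2 neurons with a highest level of 5.97 TPM in neuron 9, and had a median of 472 TPM in Fam19a1 neurons. P2rx3, the ATP-gated channel of sensory terminals, was at most 4.56 TPM in Cbln2 neurons and from 5.60 to 515 TPM in Fam19a1 neurons, without overlap. Both genes were low in neuron 3 too, at 0 and 0.873 TPM. Oprm1, the mu opioid receptor, had medians of 0 and 26.4 TPM, and Trpm3 and Trpm8, channels opened by heat and by cold, had medians of 0 TPM in Cbln2 neurons against 9.66 and 4.64 TPM. The exception was Oprl1, the nociceptin receptor, with medians of 21.0 and 0.195 TPM. Trpv1 was low in most neurons of both kinds, with medians of 0 and 0.456 TPM and highest levels of 522 and 528 TPM.

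Mechanosensitive channels open when a membrane is stretched or pressed. Of 15 tested genes, 0 were past 2 in either direction, which is close to what the shares of all genes, 1.63% and 2.64%, would give, and without neuron 3 there was 1 lower gene, Kcnk10. Piezo2, the main channel of touch and of stretch in sensory neurons, was at 122, 152, 0.167, 191, 241, 77.4, 181, 122, 138 and 54.8 TPM in Cbln2 neurons 1 to 10 and at 11.9 to 139 TPM, median 72.9 TPM, in Fam19a1 neurons. The ranges overlapped, and the difference was 0.26, or 0.94 without neuron 3, which had nearly none. Tmem63b, an osmosensitive channel gene, was at 55.5 to 144 TPM in Cbln2 neurons and had a median of 69.1 TPM in Fam19a1 neurons. Piezo1 was at most 0.735 and 1.45 TPM in the 2 kinds.

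Of 13 voltage-gated sodium channel genes tested, 2 were higher by 2 or more and 3 lower, against 1.63% and 2.64% of all genes. The median of -0.18 turned to 0.07 with the deposited values as they are. Scn10a (Nav1.8), Scn11a (Nav1.9) and the beta subunit gene Scn2b had medians of 0.999, 0.502 and 1.49 TPM in Cbln2 neurons and 261, 66.3 and 172 TPM in Fam19a1 neurons. Neuron 3 had 49.7 TPM of Scn10a, and the other 9 Cbln2 neurons at most 4.99 TPM. Among the higher genes, the beta subunit gene Scn4b had medians of 152 and 18.6 TPM. Scn9a (Nav1.7) and Scn8a (Nav1.6) were present in both kinds and differed by -0.56 and 0.11, and Scn1a (Nav1.1) differed by 1.57, or 2.09 without neuron 3.

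Potassium and calcium channels also differed in both directions. Of 32 potassium and HCN channel genes tested, 5 were higher by 2 or more, 4 were lower and the median was 0.00. Kcnq3, a subunit of the M current, and Kcnh7, of the ERG family, had medians of 22.2 and 50.2 TPM in Cbln2 neurons and 0.0309 and 1.35 TPM in Fam19a1 neurons. Kcnc4 (Kv3.4) had medians of 140 and 27.7 TPM. Kcnip1, an accessory subunit of A-type channels, Kcnv1, a modifying subunit, and Kcnt2, a sodium-activated channel, were at most 0.637, 4.60 and 0.177 TPM in Cbln2 neurons and had medians of 38.6, 16.3 and 7.03 TPM in Fam19a1 neurons. Of 15 calcium channel genes tested, 2 were higher by 2 or more and 1 lower. Cacna1h, the T-type channel Cav3.2, and Cacna2d3 were higher, with medians of 55.6 and 5.13 TPM for the first and 35.0 and 3.28 TPM for the second. Cacna1e, the R-type channel, was listed at 0 in 9 of 10 Cbln2 neurons and had a median of 9.10 TPM in Fam19a1 neurons.

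**Figure D4:**
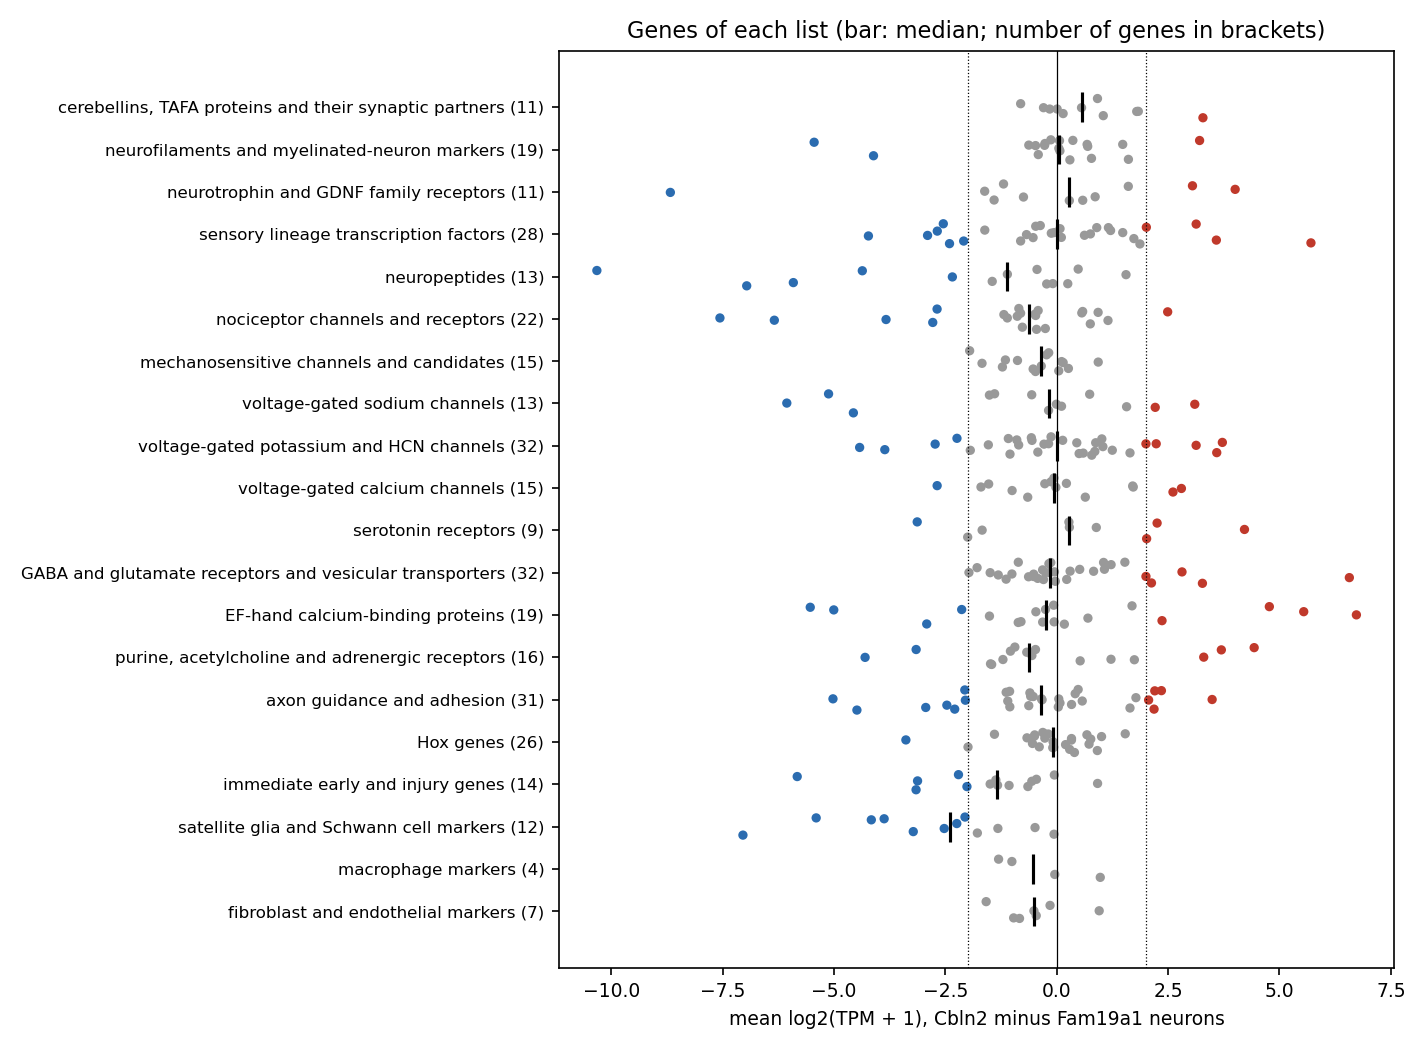
Difference of mean log2(TPM + 1), Cbln2 minus Fam19a1 neurons (x axis), of every tested gene of each list (rows, with the number of genes), with a bar at the list's median and dotted lines at 2 and -2. Neuropeptides, immediate early and glial genes lie mostly to the left with medians of -1.11, -1.35 and -2.38, while the channel and transcription factor lists spread to both sides.

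Of 32 GABA and glutamate receptor and transporter genes tested, 5 were higher by 2 or more and 0 lower, with a median of -0.15 that was 0.09 with the deposited values as they are. Gabrb2, a subunit of the GABA-A receptor, had medians of 10.7 and 0 TPM. Slc17a7 (VGLUT1), Grm4 and Gria3 had medians of 30.7, 25.8 and 10.2 TPM in Cbln2 neurons and 0.332, 3.74 and 0.792 TPM in Fam19a1 neurons, while Slc17a6 (VGLUT2), the vesicular glutamate transporter of most sensory neurons, had 255 and 242 TPM and a difference of -0.03. Of 9 serotonin receptor genes tested, 3 were higher by 2 or more and 1 lower. Htr1d had medians of 166 and 3.32 TPM, Htr7 22.1 and 1.23 TPM and Htr5b 53.6 and 18.0 TPM. Htr2a was listed at 0 in 9 of 10 Cbln2 neurons and had a median of 14.1 TPM in Fam19a1 neurons. Htr3a, a subunit of the serotonin-gated channel, was high in both kinds, with medians of 479 and 1280 TPM.

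Of 16 purine, acetylcholine and adrenergic receptor genes tested, 3 were higher by 2 or more, 2 lower and the median difference was -0.62. P2ry1, a receptor of ADP, had medians of 178 and 5.29 TPM, Adora2b, an adenosine receptor, 14.3 and 0 TPM, and Chrna6, a nicotinic subunit, 109 and 7.21 TPM. The muscarinic receptor gene Chrm2 was listed at 0 in all 10 Cbln2 neurons and had a median of 19.2 TPM in Fam19a1 neurons. P2ry2, a receptor of ATP and UTP, had medians of 0 and 20.6 TPM. Adora2b was listed at 0 in 32 of 33 Fam19a1 neurons and in 1 Cbln2 neuron.

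Among calcium-binding EF-hand proteins and their regulators 4 of 19 tested genes were higher by 2 or more and 4 lower. Tesc (tescalcin) had medians of 222 and 1.91 TPM and so went with Necab2 and Rcan2, while S100a11 had medians of 0 and 101 TPM, S100a13 129 and 650 TPM, and Rcan1, the relative of Rcan2, 2.84 and 133 TPM. The relatives Rcan1 and Rcan2 therefore had opposite differences, of -5.00 and 5.54, and these were -4.72 and 6.99 against the 6 Fam19a1 neurons in the glial range of the Cbln2 neurons. Of 31 axon guidance and adhesion genes tested, 5 were higher by 2 or more and 7 lower, with a median of -0.34. Sema5a, a semaphorin, was at most 7.25 TPM in Cbln2 neurons and at least 10.4 TPM in Fam19a1 neurons. Ephb6, Ncam2 and Sema6d had medians of 0, 1.72 and 2.96 TPM in Cbln2 neurons against 37.0, 16.3 and 29.2 TPM, and Plxnc1, a semaphorin receptor, and Unc5a, a netrin receptor, had 37.8 and 7.16 TPM against 1.34 and 0 TPM.

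Genes related to the markers themselves gave 1 gene past 2 with neuron 3 and 3 genes without it. Of 11 cerebellin, TAFA and synaptic partner genes tested other than the markers, Fam19a3 was higher by 2 or more in Cbln2 neurons, with medians of 22.0 and 0 TPM and a difference of 3.28. Fam19a2 had medians of 36.8 and 12.7 TPM and a difference of 1.80, which was 2.00 without neuron 3. Nlgn1 (neuroligin 1), a synaptic adhesion gene, had medians of 3.98 and 0 TPM and differences of 1.83 and, without neuron 3, 2.07. Grid1, a delta receptor, was low in both, with medians of 2.93 and 0.163 TPM. Cbln1 was listed at 0 in 8 of 10 Cbln2 and 32 of 33 Fam19a1 neurons.

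The study's own markers of the subtypes divided the neurons nearly as the rule did, which is no independent evidence, as the study picked them on these neurons. All 10 mNFa markers tested were higher by 2 or more in Cbln2 neurons, with a median difference of 4.32, and 8 of 10 mNFb markers were lower, with a median of -4.33. Serpinb1a and Tspan18, among the mNFb markers, went with Trappc3l, Cplx2, Sema5a and Syt2. Fam19a1 neurons had 0 to 7 of the mNFa and 7 to 10 of the mNFb markers at 10 TPM or more. Over all 279 neurons, 8 or more mNFa markers were met in 10, which were 9 Cbln2 neurons and the neuron with both genes. By contrast, 8 or more mNFb markers were met in 39, of which 32 were Fam19a1 neurons and 7 had neither gene. Of the 46 neurons left out for having fewer than 9500 genes, 6 met the Cbln2 rule and 6 the Fam19a1 rule. Of these 6 neurons with Cbln2, 5 had 9 or 10 mNFa markers, and the sixth had 6 with 9810 TPM of Calca.

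Of 12 satellite glia and Schwann cell markers tested, 8 were lower by 2 or more, 0 were higher and the median difference was -2.38. Apoe, abundant in satellite glia, was at 36.1, 5.35, 25.8, 1.62, 2.46, 0.520, 0, 0, 47.7 and 47.7 TPM in Cbln2 neurons 1 to 10 and from 0 to 33548 TPM, median 1923 TPM, in Fam19a1 neurons. Fabp7 had medians of 1.29 and 173 TPM and Sparc 0.481 and 64.4 TPM. In LS neurons alone the difference of Apoe was 0.10, with 4 neurons on each side. Of the 33 Fam19a1 neurons, 6, of which 3 were TL and 3 LS, had glial sums within the range of the Cbln2 neurons. Against these 6 the difference of Apoe was -1.61 and that of Fabp7 -2.10. The other leading genes reported here kept their sign and moved by up to 1.45, Rcan2 from 5.54 to 6.99, Asic3 from -7.56 to -6.32, Serinc2 from 6.46 to 5.49 and Calca from -10.32 to -10.91. Macrophage markers (4 tested) and fibroblast and endothelial markers (7 tested) had no gene past 2. The part of glial transcripts in the other differences was not tested beyond this comparison.

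**Figure D5:**
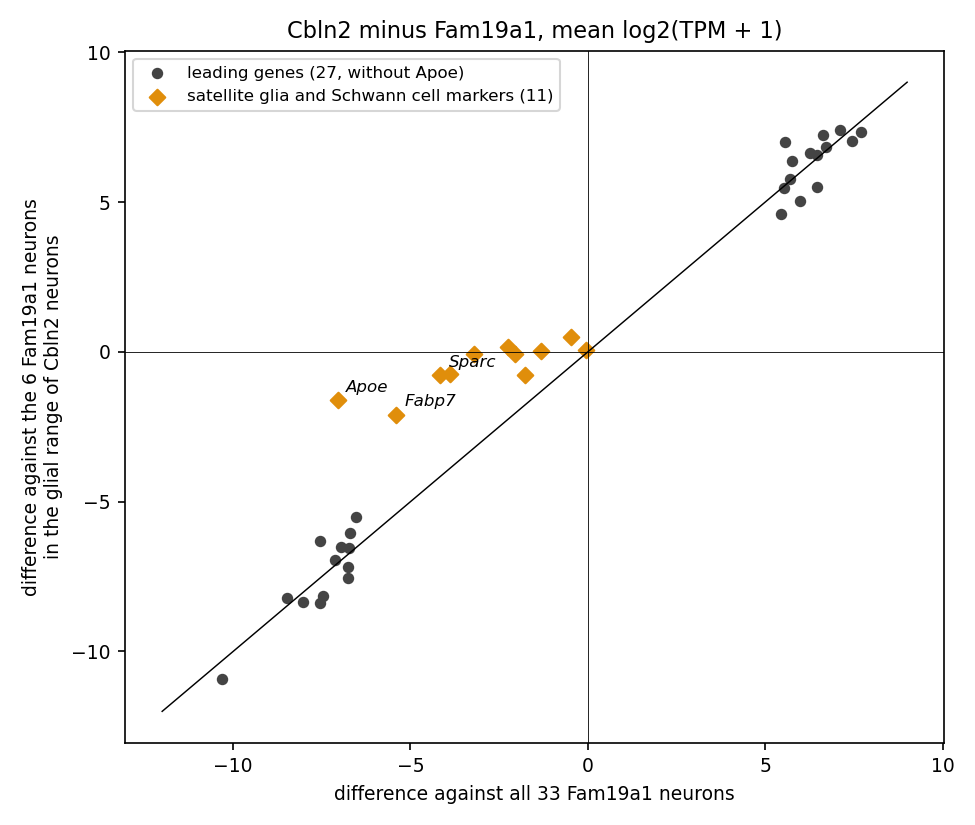
Difference of mean log2(TPM + 1), Cbln2 minus Fam19a1 neurons, against all 33 Fam19a1 neurons (x axis) and against the 6 whose glial sum lay within the range of the Cbln2 neurons (y axis), with a line of equality. The 27 leading genes drawn other than Apoe kept their sign and lie up to 1.45 from the line, and the 11 glial markers drawn lie above it, Apoe moving from -7.04 to -1.61.

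Of 14 immediate early and injury genes tested, which can respond to dissociation, 5 were lower by 2 or more in Cbln2 neurons and 0 were higher, with a median of -1.35, against 2.64% lower among all tested genes. Without neuron 3 there were 4, as the difference of Egr1 went from -2.02 to -1.69. Gap43, a growth-associated protein of axons, was at 3.87 to 38.3 TPM in 9 Cbln2 neurons, at 2328 TPM in neuron 3 and at 532 to 2515 TPM in Fam19a1 neurons. Nr4a1 had medians of 10.2 and 39.4 TPM, Arc 0 and 31.3 TPM, and Egr1 28.7 and 92.4 TPM. Fos was present in every neuron, with medians of 368 and 648 TPM. Whether the time in culture bore on these genes was not tested, as the labels give no time for a neuron.

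Hox genes mark the level of a ganglion along the body. Of 26 tested, 0 were higher and 1 was lower by 2 or more, close to what the 1.63% and 2.64% of all genes would give. It was Hoxb5, with medians of 0.792 TPM in Cbln2 neurons and 32.5 TPM in Fam19a1 neurons. Within TL neurons the difference of Hoxb5 was -3.19. Hoxd10, a gene of posterior segments, was listed at 0 in all 6 TL Cbln2 neurons and was at 44.9, 42.0, 36.5 and 0 TPM in the LS neurons 3, 5, 9 and 10. It was at 10 TPM or more in 4 of 4 LS and 0 of 29 TL Fam19a1 neurons. Hoxa10 was at most 3.62 TPM in TL and at least 5.95 TPM in LS Cbln2 neurons. In Fam19a1 neurons Hoxa10 did not split by segment in this way, with 4 of 29 TL and 4 of 4 LS neurons at 10 TPM or more. The levels of both genes went with the segment labels for all Cbln2 neurons except neuron 10. In neuron 10 Hoxd10 was listed at 0 and Hoxa10 was at 12.2 TPM.

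Among 26 genes compared between TL and LS Cbln2 neurons without neuron 3, the values did not overlap for 2, Hoxa10 and Rarres1. Necab2 ranged from 157 to 231 TPM in 6 TL and from 184 to 210 TPM in 3 LS neurons. Rarres1 was at 605 to 894 TPM in TL and 320 to 591 TPM in LS neurons. Calca was at most 4.81 TPM in TL neurons and at 15.3, 55.5 and 0 TPM in LS neurons 5, 9 and 10.

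Fam19a1 neurons were not uniform. Neurons 11, 13 and 28, all from TL ganglia, had 152, 137 and 194 TPM of Ntrk3 against a median of 1.62 TPM over the kind, the 3 highest levels of the kind. They had 921, 829 and 1539 TPM of Nefh against a median of 434 TPM, levels that some other Fam19a1 neurons shared. Their levels of Rcan2 were 375, 287 and 408 TPM, within or near the range of Cbln2 neurons. Neurons 11 and 28 also had 1.48 and 1.54 TPM of Scn10a, while neuron 13 had 56.2 TPM. Asic3 was listed at 0 in neurons 6 and 18. These neurons were chosen after their values were seen.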

How the data were processed

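Single neurons traced from the colon were sequenced by Smart-seq2 in 6 library plates, and the labels list 203 TL and 196 LS neurons and 13 bath controls. Per the labels' processing notes, bcl2fastq 2.15.0.4, STAR 2.4.1 and featureCounts 1.4.4 were used with GRCm38.p3. The authors deposited log2 values of normalised expression for 325 neurons (167 TL, 158 LS) that had passed their filter on quality. Satellite glia had not been taken out of this table. Bath controls and neurons outside this table were not used here.

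Here 1 was subtracted from 2 raised to each deposited log2 value, and each neuron was rescaled to TPM. Reads were recovered from the steps between low values: with annotated gene lengths 65.3% of values above 0 were whole reads within the set tolerance, against 0.262% with lengths altered by up to 10%, and for 8712 genes the length came from the values. Recovery was tested on made-up reads, of which 100% came back. Depth was 416007 to 12058968 reads per neuron over the 279 neurons used. Reads without molecular identifiers are not independent molecules, so intervals cover counting error only.

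Neurons were grouped by the 2 markers as stated, and differences are of mean log2(TPM + 1), Cbln2 minus Fam19a1 neurons, over genes at 1 TPM or more in 10% of the 43 neurons. TPM, not counts, was compared, because neurons of a segment may share mice and cultures, which the labels do not name. Each segment was therefore treated as 1 sample, which allows no count test. Named genes were the markers, the 15 genes per direction with the largest difference that had the same direction in TL neurons and in each of plates 3 to 6 and a median of 10 TPM or more in the higher kind, and up to 6 per list by size, of which some items are not reported here. The 27 lists hold 467 genes, all matched. Members, lists and comparisons were chosen with earlier results of these data known. Exact Clopper-Pearson intervals at the 95% level came from scipy 1.17.1, other steps from Python 3.11.15, numpy 2.4.6 and pandas 2.3.3. Alternatives covered the marker limit, gene minimum, pseudocount, filter, scaling, depth, segment, plate, glial level and each Cbln2 or Fam19a1 neuron left out. The authors' markers of subtypes were used only to describe neurons.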

Additional observations from a re-analysis of the deposited data

Results flagged for a closer look

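Each marker and leading gene reported here, the depth, the number of genes, the mitochondrial share and the glial sum were checked over the 10 Cbln2 neurons for a neuron far from the others, and 23 of 33 checks found 1. The check's rate of about 1 in 20 by chance assumes normally spread values and independent checks. The genes checked vary together over the same 10 neurons, and several were absent from most of them. For Ptgir and Kit, neuron 3 was the only Cbln2 neuron with the gene, which by itself gives a flag. The 23 flags can therefore not be set against that rate and are a description only. In 20 of the 23 the neuron was Cbln2 neuron 3, the LS neuron with high Calca. All values that follow are log2(TPM + 1).

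Among the genes high in the other 9 Cbln2 neurons, neuron 3 had 4.71 for Cbln2 (others 6.91 to 8.32), 2.48 for Rarres1 (others 8.33 to 9.81), 3.41 for Tspan8, 4.40 for Ppm1j, 1.98 for Tbx3, 5.56 for Rcan2 and 3.49 for Acpp. It had 0 for Rgs5, Necab2, Baiap2l1, Moxd1, Tbx3os2, Slc6a19 and Tmem72. Among the genes low in the other 9, neuron 3 had 14.7 for Calca (others 0 to 5.82), 10.6 for 6330403K07Rik, 5.34 for Ptgir, 10.4 for Nmb, 5.45 for Kit and 9.93 for Tmem176a. Its reads, number of genes and glial sum did not stand out.

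In 3 checks another neuron stood out. Neuron 10 had 5.58 for Serinc2 (others 6.62 to 7.53), neuron 9 had 2.80 for Asic3 (others 0 to 1.46) and neuron 1 had 3.26 for D930028M14Rik (others 0 to 1.68). Of 17545 tested genes, 0 had values without overlap between the kinds that were higher in TL and lower in LS neurons, or the reverse. Signs of the mean difference did turn, as for Apoe, with -8.91 in TL and 0.10 in LS neurons, and the change was not tested.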

How the results depend on the processing

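The number of Cbln2 neurons was 10, 9 at a limit of 5 TPM, 11 at 20 TPM, 16 over all neurons of the table and 6 without plate 6. Of the counts of genes past 2, 286 higher and 463 lower, those higher were 171 over all neurons of the table and 432 by the difference of medians. With a pseudocount of 0.1 TPM they were 670 higher and 1203 lower, with 10 TPM 67 and 112. At a difference of 1 the counts were 1003 and 1414, and at a difference of 3 they were 120 and 212. With 1 neuron left out, the counts ranged from 268 to 347 and from 450 to 514, and the LS shares from 33.3% to 44.4% for Cbln2 and from 9.38% to 12.5% for Fam19a1 neurons. The highest counts came without Cbln2 neuron 3. Of 2500 values, for the 100 named genes reported here in 25 settings, 2358 differed from the reported value by less than the spread over neurons and 142 by more, and 53 genes were past 2 in all 25. The settings with 16 Fam19a1 neurons below their median glial sum, with 6 in the glial range of the Cbln2 neurons, without the ribosomal gene CT010467.1 and without neuron 3 were added after the data were seen. No paired analysis was possible because the result comes from no test and a neuron's number pairs it with no other. As the mean of the differences within plates 3 to 6, the counts were 251 higher and 507 lower. Thinned to 500000 reads per neuron, the counts were 295 and 468. The small number of Cbln2 neurons limits these values, and 4 LS neurons of each kind limit the values within LS.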

Other observations

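Genes of the mitochondrial energy chain were looked at after their values were seen. Of 108 tested nuclear genes of complexes I, III and IV, ATP synthase, pyruvate dehydrogenase and the citric acid cycle, 97 had a difference above 0 in favour of Cbln2 neurons (89.8%, against 44.7% of all tested genes). Under CPM of recovered reads 99 were above 0, and with the deposited values as they are 106 were, against 66.8% of all tested genes. The medians of the 5 groups were 0.31 to 0.49, well under 2. Mdh1, a malate dehydrogenase, ranged from 1497 to 1863 TPM in the 9 Cbln2 neurons other than neuron 3 and from 282 to 1172 TPM in Fam19a1 neurons. Atp5a1, a subunit of ATP synthase, ranged from 967 to 1397 TPM and from 372 to 892 TPM, and Uqcrfs1, of complex III, from 513 to 815 TPM and from 178 to 512 TPM. These were among 7 of the 108 genes whose values were higher without overlap once neuron 3 was left out, against 0.546% of all tested genes. The share of genes past 2 was near that of all tested genes (1.63% higher), with 2 of 108, Cox6a2 and Cox7a1, muscle-type subunits of complex IV. Cox6a2 was listed at 0 in all 33 Fam19a1 neurons and had a median of 8.93 TPM in Cbln2 neurons.

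The 13 protein-coding genes of the mitochondrial genome all had a difference above 0, with a median of 0.64. Their median was 0.45 to 0.73 within plates 3 to 5 and 0.09 within plate 6, which holds 4 Cbln2 neurons. Within plate 4, which holds neuron 3 and 1 other Cbln2 neuron, the medians of the nuclear groups were between -0.16 and 0.09, and in plates 3, 5 and 6 between 0.30 and 0.71. The share of reads on mitochondrial genes and the glial sum moved with these differences, and their part was not tested. Against the 6 Fam19a1 neurons with a glial sum in the range of the Cbln2 neurons the medians of the nuclear groups were 0.40 to 0.57.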
